A study of Mus musculus with 14 samples.

Results

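Ezh1, Ezh2, Eed, Suz12, Jarid2, Ring1, Rnf2, Bmi1, Cbx2 and Cbx7 encode subunits of the Polycomb repressive complexes, and the H3K4me3 peaks and putative enhancers at these 10 genes were examined among 21938 protein-coding genes. The genes were chosen by name. For each, every H3K4me3 peak with any base within 1 kb of an annotated transcription start site (TSS) was taken, together with every putative enhancer in the gene or within 50 kb of its ends. This gave 17 of the 25431 peaks and 26 of the 32965 enhancers of the lists. All 10 genes carried H3K4me3 at the start of their main coding transcript. They differed in how wide the mark was, in whether it was split just upstream of the start, and in whether further promoters inside or upstream of the gene were marked.

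Polycomb proteins act as antagonists of trithorax proteins. Polycomb repressive complex 2 (PRC2) methylates lysine 27 of histone H3 through EZH1 or EZH2, with EED and SUZ12 as its other core subunits, and Polycomb repressive complex 1 (PRC1) ubiquitinates histone H2A through RING1 or RNF2. Trithorax complexes, which contain ASH2L, methylate lysine 4 of the same histone, and trimethylated H3K4 (H3K4me3) is found mainly at promoters, many of which are rich in CpG dinucleotides.

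Chromatin immunoprecipitation and sequencing (ChIP-seq) of H3K4me3 was performed in iMEF cells, which are immortalised mouse embryo fibroblasts. The cells carried a lentiviral construct for human ASH2L with an N-terminal FKBP12F36V tag, their endogenous Ash2l was inactivated in all groups by deletion within the gene, and per the study's methods they were 1 clone. The 6 groups of 2 replicates were cells without dTAG and cells treated with dTAG for 30 min, 2 h, 4 h, 8 h or 16 h, and 2 input libraries completed the 14. The compound dTAG links the tag to a ubiquitin ligase, so that the fusion protein is degraded. The peaks of all samples had been combined into a single list, and the enhancers came from control cells only. Both lists hold positions and no value for any sample. The depth of the libraries is therefore unknown here, there is no replicate error, the effect of dTAG on these genes was not analysed, and every value below is a description without a test. Of 10 fibroblast markers, all had a peak, and of 17 markers of leukocytes, epithelium, endothelium, pluripotent cells and neurons, 3 did (Epcam, Kdr and Syn1). Positions are in build mm10 (GRCm38.p6) and count from 1.

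All 10 genes had a peak within 1 kb of a TSS, and so had 59.1% of all protein-coding genes. In all 10, a peak contained the TSS of the coding transcript that the GENCODE annotation ranks first, called the first-ranked TSS below. This held for 45.3% of all protein-coding genes, a share that includes genes without any peak. Of the 12911 protein-coding genes with a peak and a first-ranked TSS, 9903 had this TSS inside a peak. The number of peaks per gene was 1 for Ezh1, Eed, Ring1, Rnf2, Cbx2 and Cbx7, 2 for Ezh2, Suz12 and Bmi1, and 5 for Jarid2. Thus 4 of the 10 genes had at least 2 peaks, against 40.3% of all protein-coding genes with a peak, a share close to this background. The widest peak of each gene ranged from 729 bp at Cbx7 to 2391 bp at Bmi1. Its median was 1478.5 bp in the 10 genes and 1255 bp over the 12966 protein-coding genes with a peak, and 6 of the 10 genes lay above the latter. The plot of peaks around the starts shows these differences gene by gene.

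**Figure D1:**
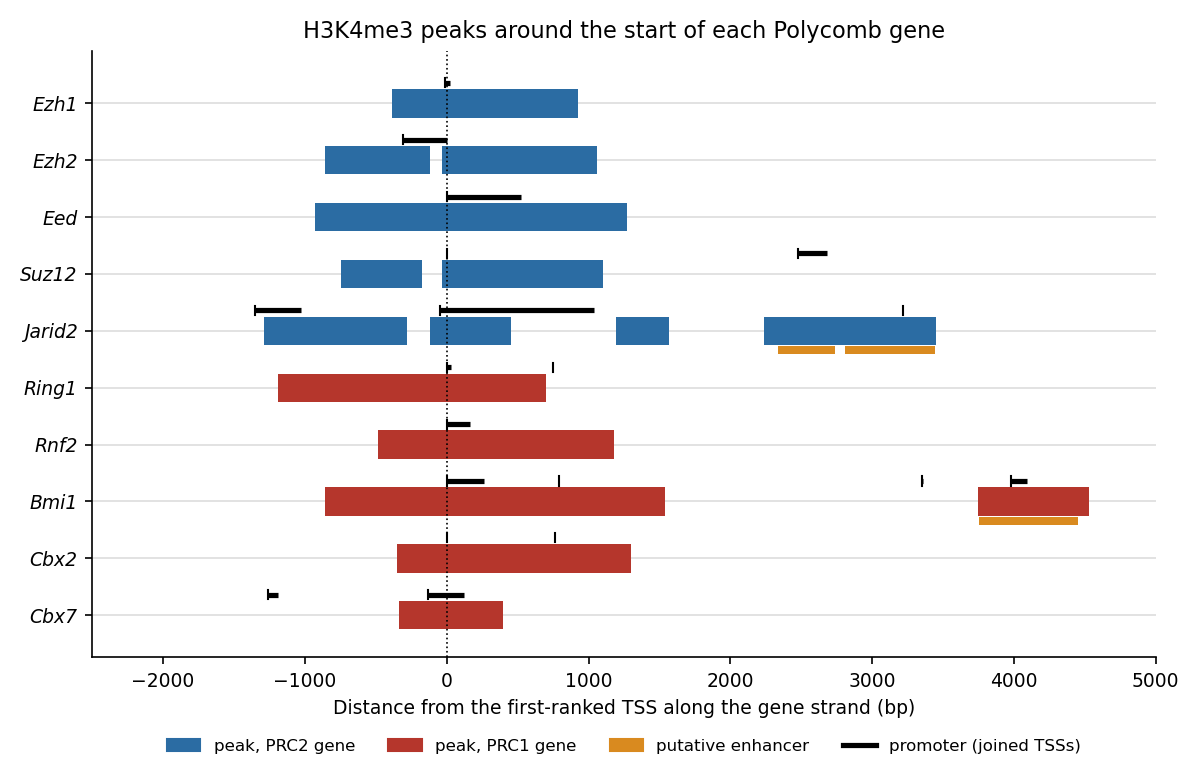
H3K4me3 peaks (bars, blue for PRC2 genes and red for PRC1 genes), promoters (black, from the first to the last of the joined TSSs, with a tick at the 5' end) and putative enhancers (orange) by distance in bp from the first-ranked TSS along the gene strand; promoters and peaks beyond the plotted range are not drawn. A peak covered position 0 in all 10 genes, and at Ezh2, Suz12 and Jarid2 a gap of 85, 141 and 161 bp separated it from another peak upstream.

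The genes of the PRC2 methyltransferases differed in the form of their peaks. Ezh1, on the minus strand of chromosome 11 (chr11:101191115-101226463, ENSMUSG00000006920.14), had 1 peak of 1309 bp at chr11:101225527-101226835. It reached 385 bp upstream and 924 bp downstream of the first-ranked TSS, and 53.5% of protein-coding genes with a peak had a narrower widest peak. Ezh2, the paralogue that predominates in dividing cells, lies on the minus strand of chromosome 6 (chr6:47530139-47595341, ENSMUSG00000029687.16). It had a peak of 1096 bp over the first-ranked TSS (chr6:47593971-47595066) and a peak of 737 bp upstream of this TSS (chr6:47595152-47595888). The upstream peak contained 1 further TSS of Ezh2. The peak over the start lay almost wholly in the transcribed part, with 96.7% of its bases downstream of the first-ranked TSS. Of all genes with a peak, 38.5% had a narrower widest peak, so as deposited Ezh2 lay below Ezh1 and below the median. With peaks merged within 1 kb its width was 1918 bp and Ezh2 lay above Ezh1, which stayed at 1309 bp, so the order of the 2 paralogues depends on the gap.

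Eed encodes the subunit that binds trimethylated H3K27 and stimulates the enzyme. Its single peak of 2200 bp (chr7:89979716-89981915) was wider than that of 88.6% of genes with a peak, the second widest of the 10. The peak contained 5 TSSs of Eed (chr7:89954654-89980983, minus strand, ENSMUSG00000030619.9) and a TSS of E230029C05Rik, a non-coding gene on the opposite strand. That TSS lay 228 bp downstream of the first-ranked TSS of Eed, and the peak, which covers both starts, cannot be assigned to either gene. Exons of the genes in this region made up 68.4% of the peak.

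Suz12 encodes the scaffold subunit of PRC2 (chr11:79993106-80034123, plus strand, ENSMUSG00000017548.15). A peak of 1134 bp began 31 bp before its start (chr11:79993075-79994208) and contained the start codon, 214 bp after the TSS. A second peak of 571 bp lay upstream (chr11:79992363-79992933), and all of its bases were outside annotated genes. As at Ezh2, the peak over the start lay almost wholly downstream, with 97.3% of its bases beyond the TSS, and the pair merged to 1846 bp.

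Jarid2 encodes a DNA-binding subunit that helps to bring PRC2 to chromatin. It is the longest of the 10 genes (chr13:44729474-44921643, plus strand, ENSMUSG00000038518.15) and had the most peaks. The first-ranked TSS lay in the second of them, which was 573 bp wide (chr13:44730704-44731276). Further peaks of 1010, 371 and 1212 bp lay 785.5 bp upstream and 1379 and 2845.5 bp downstream of this TSS, measured to their centres. With gaps of 161, 740 and 675 bp between them, these 4 peaks merged to 4742 bp, wider than the merged widest peak of 98.1% of genes, whereas the widest deposited peak of Jarid2 exceeded that of only 47%. The position of Jarid2 in the order of widths therefore turned on how the list splits neighbouring peaks. The fifth peak of 688 bp (chr13:44840232-44840919) lay far inside the gene, with its centre 109752.5 bp after the first-ranked TSS, and contained 2 TSSs.

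At Jarid2, the gap of 740 bp lay downstream of the first-ranked TSS, and the promoter with this TSS, which joined 10 TSSs, extended into it. Only the 3 gaps that lay wholly upstream of the first-ranked TSS are followed here. They began 121 bp before the first-ranked TSS and ended 37 bp before it at Ezh2, spanned 172 to 32 bp before it at Suz12, and 280 to 120 bp before it at Jarid2. Another peak within 500 bp upstream of the peak with the first-ranked TSS was thus present in 3 of the 10 genes, all 3 of PRC2. The share over the 9903 protein-coding genes with this TSS inside a peak was 24.5%, so the 10 genes lay close to this background. With 5 genes in each complex, a difference between PRC2 and PRC1 was not tested. The median gap over protein-coding genes was 140 bp. The gap at Ezh2 was shorter than this median and those at Suz12 and Jarid2 were longer. The peaks upstream of the gaps contained 1 TSS at Ezh2, 2 at Jarid2 and 0 at Suz12. At Ezh2 and Jarid2 the gap therefore lay between annotated starts of the gene. The sequences are shown because they separate the marked stretches. They are the bases before the nearest TSS downstream of each gap, read on the gene strand up to 250 bases or to the nearest exon, with the bases between the 2 peaks in capitals, at chr6:47595059-47595183 (minus strand), chr11:79992856-79993105 (plus strand) and chr13:44730524-44730773 (plus strand).
Ezh2: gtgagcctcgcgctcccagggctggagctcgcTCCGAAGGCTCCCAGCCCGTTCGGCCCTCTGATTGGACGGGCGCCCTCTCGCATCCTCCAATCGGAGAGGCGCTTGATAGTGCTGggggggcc
Suz12: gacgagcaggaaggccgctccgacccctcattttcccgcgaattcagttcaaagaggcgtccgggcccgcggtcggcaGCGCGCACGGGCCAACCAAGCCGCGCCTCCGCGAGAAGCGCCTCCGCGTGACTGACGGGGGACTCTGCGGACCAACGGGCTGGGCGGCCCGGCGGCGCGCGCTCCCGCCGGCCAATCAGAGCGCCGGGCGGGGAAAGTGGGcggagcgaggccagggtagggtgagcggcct
Jarid2: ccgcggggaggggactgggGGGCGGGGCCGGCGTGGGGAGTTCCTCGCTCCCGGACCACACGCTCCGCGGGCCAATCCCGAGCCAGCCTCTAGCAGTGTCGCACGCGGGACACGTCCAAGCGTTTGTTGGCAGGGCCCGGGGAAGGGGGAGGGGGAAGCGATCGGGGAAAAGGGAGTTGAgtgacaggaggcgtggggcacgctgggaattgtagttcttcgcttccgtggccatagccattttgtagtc
The gaps were rich in G and C, with a GC content of 64.7% at Ezh2, 78% at Suz12 and 70.2% at Jarid2, and they held 8, 24 and 17 CpGs. Each of the 3 held at least 1 CCAAT on either strand, namely 2 at Ezh2, 1 at Suz12 and 1 at Jarid2. This motif was looked for in the gaps after they had been seen. Among the 1084 gaps of 85 to 161 bp at protein-coding genes, 42.3% held it. In the 200 bases before the first-ranked TSS, CCAAT was present at 44.2% of the 2430 genes with a gap of up to 500 bp. It was present at 25.7% of genes with the TSS inside a peak and no gap of this size. The GC box GGGCGG was searched too, and occurred 0, 2 and 1 times in the gaps at Ezh2, Suz12 and Jarid2. Of the 1084 gaps, 52.5% held it. Before the TSS, the GC box was present at 68.3% of genes with a gap and at 59.7% of those without.

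The 5 PRC1 genes had 6 peaks and none of them was split at the start. Ring1 and Rnf2 encode the paired E3 ligases that ubiquitinate H2A. The peak of Ring1 was 1894 bp wide (chr17:34023980-34025873) and that of Rnf2 1664 bp (chr1:151499774-151501437), wider than those of 81.1% and 72.9% of genes with a peak. Ring1 (chr17:34020792-34024680, minus strand, ENSMUSG00000024325.8) is the shortest of the 10 genes, and its peak was the only 1 of the 10 over a first-ranked TSS with most of its bases upstream, where 1193 bp lay against 701 bp downstream. In this upstream stretch the peak contained the annotated 5' ends of Gm26940, a lincRNA, and of the microRNA genes Mir219a-1 and Mir219c. They lay 390, 412 and 332 bp before the first-ranked TSS of Ring1. The coding gene H2-Ke6 started 2078 bp upstream of that TSS, within 1 kb of the peak and outside it. At Rnf2 (chr1:151458004-151500955, minus strand, ENSMUSG00000026484.13), the start of the gene model Gm36527 lay 1370 bp downstream of the first-ranked TSS, just beyond the peak. The mark at Ring1 therefore covers the annotated 5' ends of several genes and cannot be assigned to Ring1 alone. The peak of Rnf2, by contrast, contained 4 TSSs of Rnf2 and no start of another gene.

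Bmi1 encodes a PCGF subunit that partners the ligases, and had the widest peak of the 10 genes. It spanned 2391 bp (chr2:18676163-18678553), from 855 bp upstream to 1536 bp downstream of the first-ranked TSS, and 91.7% of genes with a peak had a narrower one. A second peak of 787 bp (chr2:18680762-18681548) lay in the gene (chr2:18677018-18686629, plus strand, ENSMUSG00000026739.13), with its centre 4137 bp after the first-ranked TSS, and contained 2 further TSSs. Cbx2 and Cbx7 encode chromodomain proteins that bind trimethylated H3K27. The peak of Cbx2 (chr11:119022962-119031270, plus strand, ENSMUSG00000025577.7) was 1648 bp wide at chr11:119022612-119024259, wider than that of 72.2% of genes with a peak. The peak of Cbx7 (chr15:79915807-79971119, minus strand, ENSMUSG00000053411.16) was 729 bp wide at chr15:79932245-79932973, and 14% had a narrower one. It was the narrowest of the 10 both as deposited and after merging, where 9.49% were narrower.

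**Figure D2:**
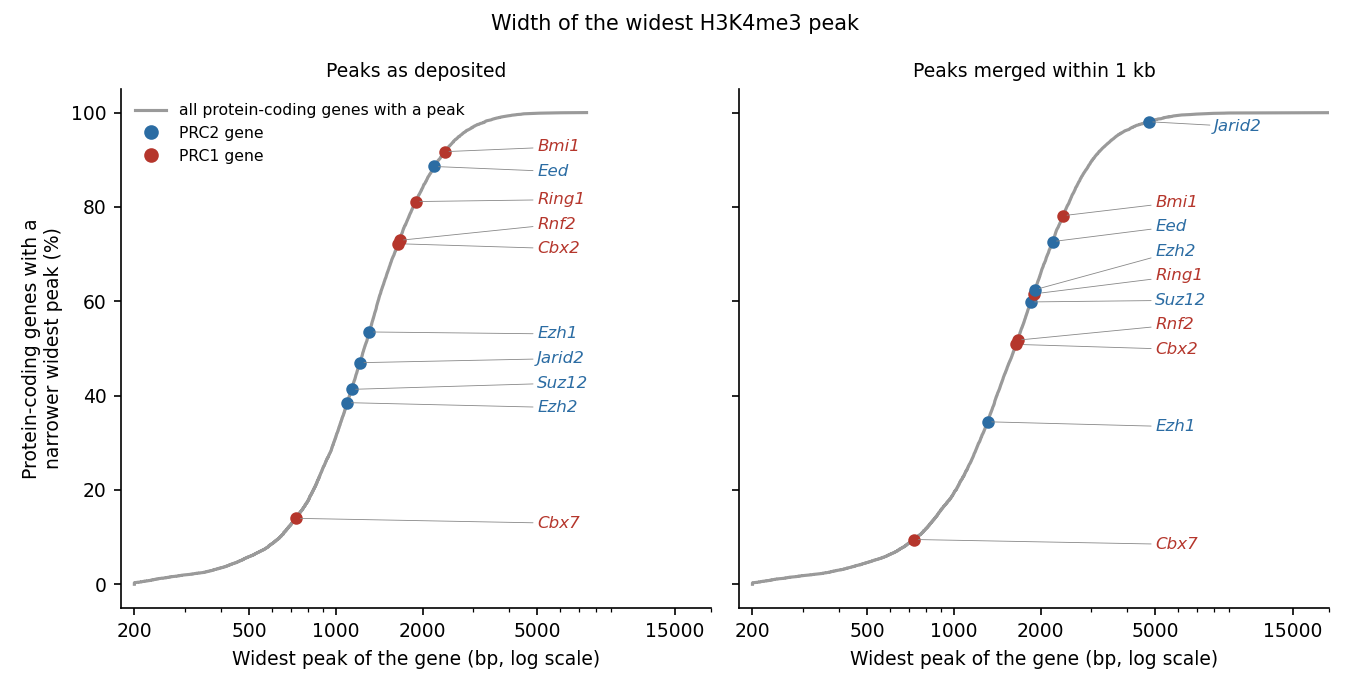
Width in bp of the widest H3K4me3 peak (log scale) against the percentage of protein-coding genes with a peak whose widest peak is narrower, for all such genes (grey line), PRC2 genes (blue) and PRC1 genes (red), with the peaks as deposited (left) and merged within 1 kb (right). Bmi1 with 2391 bp was the widest and Cbx7 with 729 bp the narrowest on the left; on the right Jarid2 moved to the top with 4742 bp.

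The widths of PRC2 and PRC1 genes overlapped. The median widest peak was 1212 bp in the 5 PRC2 genes, with a range of 1096 to 2200 bp, and 1664 bp in the 5 PRC1 genes, with a range of 729 to 2391 bp. After merging within 1 kb the medians were 1918 and 1664 bp, so the order of the 2 complexes reversed. Over all 10 genes the merged median was 1870 bp, against 1628 bp for all protein-coding genes with a peak.

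Measured from the first-ranked TSS, most peaks over it extended mainly into the transcribed part of the gene. Of the peak that held it, the share downstream of the first-ranked TSS ranged from 37% at Ring1 to 97.3% at Suz12, with a median of 70.8%, and the median over all protein-coding genes was 75.3%. The widest peak held this TSS in 9 of the 10 genes, Jarid2 being the exception, and in 70.5% of all protein-coding genes with a peak. In those 9 widest peaks, the median share downstream of it was 70.6%. Measured from the TSS nearest to the peak centre, the median over the 10 widest peaks was 55.8%, so the share depends on the TSS chosen. A peak contained the start codon of the first-ranked transcript at Eed, Suz12, Ring1, Cbx2 and Cbx7, where it lay 123 to 458 bp after the TSS. In the other 5 genes the start codon lay outside the peaks, from 1049 bp after the TSS at Jarid2 to 22332 bp at Rnf2.

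The TSSs of the 10 genes, 80 in all, were joined into 41 promoters where neighbours lay within 500 bp. Of these promoters, 19 (46.3%) had a peak within 1 kb and 16 (39%) had a TSS inside a peak. Over all protein-coding genes the shares were 32.3% and 27.5%. These shares include promoters of genes without any peak, whereas all 10 genes had a peak, so the comparison is not of like genes. The shares over genes with a peak alone were not computed. Jarid2 (4 of 4), Bmi1 (4 of 4), Ring1 (2 of 2) and Cbx2 (2 of 2) had a peak within 1 kb of all their promoters. At Ezh1, Ezh2, Eed, Suz12 and Rnf2, 1 promoter each was marked, out of 6, 8, 5, 3 and 4. Cbx7 had 2 of 3 promoters marked. Of the 22 promoters without a peak within 1 kb, 17 gave rise only to transcripts that are not annotated as protein-coding. With the TSSs of coding transcripts alone, 16 of 21 promoters (76.2%) were marked. The same share over all protein-coding genes was not computed, and the 32.3% above counts promoters of all transcripts. The 5 unmarked coding promoters were 2 of Ezh2 and 1 each of Eed, Rnf2 and Cbx7.

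Cbx7 was the only 1 of the 10 genes whose most upstream promoter had no peak. Its 2 transcripts with the farthest 5' ends start at positions 79971118 and 79971119, 38480 bp upstream of the first-ranked TSS, and no peak lay within 1 kb of them. The marked promoter comprised 5 TSSs, 4 of them of coding transcripts. At Jarid2, by contrast, an internal promoter 109868 bp after the first-ranked TSS was marked by the fifth peak, and at Bmi1 a promoter 3976 bp after the first-ranked TSS was marked by the second peak. The bases before 3 starts are shown, for the gene with the widest peak and for a marked and an unmarked promoter of the gene with the narrowest one, with CpGs in capitals. The first and second are the 250 bases before the RefSeq start (chr2:18676768-18677017, plus strand, and chr15:79932647-79932896, minus strand), and the third is the 250 bases before the unmarked upstream TSS of Cbx7 (chr15:79971120-79971369, minus strand).
Bmi1, marked: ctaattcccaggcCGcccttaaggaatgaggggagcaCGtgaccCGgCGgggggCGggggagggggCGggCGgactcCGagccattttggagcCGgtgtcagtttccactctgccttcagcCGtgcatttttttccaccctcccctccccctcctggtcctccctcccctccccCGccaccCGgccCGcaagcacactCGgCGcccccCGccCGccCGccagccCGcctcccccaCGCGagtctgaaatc
Cbx7, marked: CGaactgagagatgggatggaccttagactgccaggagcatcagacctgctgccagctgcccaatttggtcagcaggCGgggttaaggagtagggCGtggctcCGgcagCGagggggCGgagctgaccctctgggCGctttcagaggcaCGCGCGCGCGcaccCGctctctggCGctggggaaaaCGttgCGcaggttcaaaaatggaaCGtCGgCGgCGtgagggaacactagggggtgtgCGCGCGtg
Cbx7, unmarked: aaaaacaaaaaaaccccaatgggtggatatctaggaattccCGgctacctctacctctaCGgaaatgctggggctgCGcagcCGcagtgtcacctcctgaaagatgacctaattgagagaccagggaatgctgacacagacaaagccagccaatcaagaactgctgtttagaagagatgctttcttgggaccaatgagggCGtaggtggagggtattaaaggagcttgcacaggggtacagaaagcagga
These stretches held 21, 23 and 5 CpGs, and their GC contents were 70.4, 64.8 and 49.6%. The unmarked promoter of Cbx7 was poorer in CpGs than both marked stretches. Over the whole peaks, Cbx7 had 8.64 CpGs per 100 bp with a ratio of observed to expected CpGs of 0.783, and the first peak of Bmi1 had 10.7 with a ratio of 0.979.

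Promoters with a TSS inside a peak were mostly richer in CpGs than promoters without a peak nearby. CpG content was measured as the ratio of observed to expected CpGs in the 500 bp on either side of the most upstream TSS of each promoter. The ratio was 0.403 to 0.999 at the 16 promoters with a TSS inside a peak and 0.131 to 0.456 at the 22 promoters without a peak within 1 kb. The 3 promoters with a peak within 1 kb but no TSS inside it were at 0.136 (Bmi1), 0.404 (Ring1) and 0.507 (Cbx7), within or near the range of the unmarked ones. Above 0.6, the threshold used for CpG islands, lay 13 of the 16, 0 of these 3 and 0 of the 22. The ranges of the 16 and the 22 overlapped at 3 promoters, namely the internal promoter of Jarid2 (0.403, with a TSS inside a peak), an internal promoter of Ezh2 (0.428, unmarked) and the upstream promoter of Cbx7 (0.456, unmarked). Over all protein-coding genes the medians were 0.732 and 0.228 for promoters with and without a TSS inside a peak, so the same difference was present over the whole annotation. At the promoters with the first-ranked TSS, 9 of the 10 genes were above 0.732, and Cbx7 was at 0.718.

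**Figure D3:**
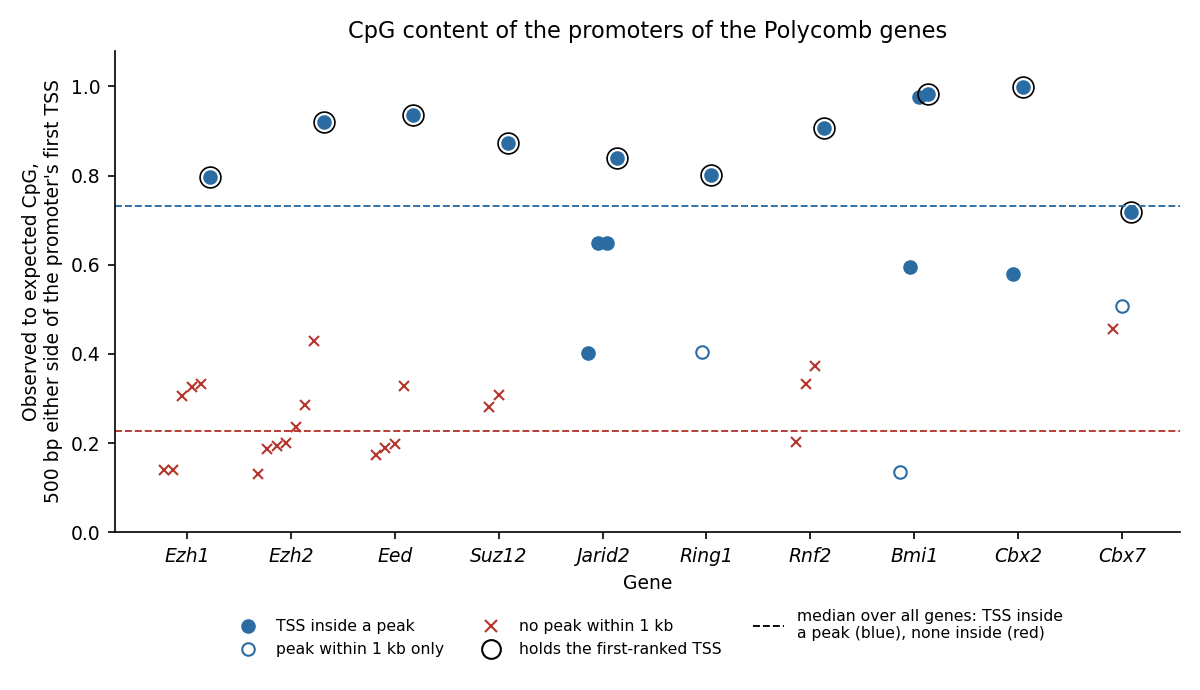
Ratio of observed to expected CpGs within 500 bp of the first TSS of each of the 41 promoters, by gene: filled circles have a TSS inside a peak, open circles have a peak within 1 kb only, crosses have none, black rings mark the promoter with the first-ranked TSS, and dashed lines are medians over all protein-coding genes (0.732 with a TSS inside a peak, 0.228 without). All 22 crosses lie at or under 0.456 and 9 of the 10 ringed points lie above 0.732.

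A CpG island called from the reference sequence overlapped the widest peak of all 10 genes, against 86.1% of the widest peaks of all protein-coding genes. Of the 17 peaks, 15 overlapped an island, and the 2 that did not were the third and the fifth peak of Jarid2. The median GC content of the widest peaks was 64.6% in the 10 genes and 58.4% over all protein-coding genes, and the median CpG ratio was 0.835 against 0.678. Ezh2 with 0.981 and Bmi1 with 0.979 had the highest ratios among the widest peaks, and Ring1 with 0.652 the lowest, below the median of all genes.

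Short motifs were searched on both strands in the RefSeq promoter windows, which run from 250 bases before to 50 after a start. Of the 10 genes, 9 had an entry, and Jarid2 had 2, giving 10 windows. CCAAT was found in 6 of the 10 windows, at 5 of the 9 genes (Ezh2, Eed, Suz12, Jarid2 and Cbx7), and in 37.4% of all 32851 windows. The GC box GGGCGG was found in 7 of the 10 windows, at 6 of the 9 genes, and in 35.7% of all windows. It occurred 6 times at Bmi1, overlaps counted, and 3 times each at Suz12 and Ring1. A TATAAA was present in 1 window, the downstream window of Jarid2, 31 bases before the start, and in 13.6% of all windows. Of the 4 E2F forms TTTCCCGC, TTTCGCGC, TTTGCCGC and TTTGGCGC, the first was found at Suz12 and the last at Ezh2, and 2.26% of all windows held 1 of the 4. CCGGAAGT (ETS), TGACGTCA (CREB) and GCATGCGC (core of the NRF1 motif) were in none of the 10 windows, and in 3.89, 1.79 and 2.71% of all windows. The windows of these genes were richer in CpGs than most, with a median of 27 against 7, and the part of this difference in the GC box counts was not tested.

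Putative enhancers were defined by the authors from H3K4me1, H3K27ac and open chromatin in control cells. They lay in or within 50 kb of 9 of the 10 genes, against 62.3% of all protein-coding genes. The latter share includes genes without an H3K4me3 peak, whereas all 10 genes had one, so the comparison is not of like genes. Over protein-coding genes with a peak, the first quartile was 1 enhancer per gene. Bmi1 had 7, Eed 6, Jarid2 4, Suz12 3, Cbx2 2 and Ezh1, Ezh2, Rnf2 and Cbx7 1 each. Ring1 had 0, in a window of 103889 bp, and 2 within 100 kb. The median was 1.5 per gene in the 10 genes, 1 over all protein-coding genes and 2 over those with a peak. Per 100 kb of window, which allows for gene length, the median was 1.05 in the 10 genes. It was 0.91 over all protein-coding genes, those without a peak included. Bmi1 had 6.39, Eed 4.75 and Suz12 2.13, while Ezh1 with 0.739, Rnf2 with 0.7, Cbx7 with 0.644, Ezh2 with 0.605 and Ring1 with 0 lay below the latter median. Thus Bmi1 and Eed, the genes with the 2 widest deposited peaks, also had the most enhancers nearby. Ring1 and Rnf2, with the next widest peaks (1894 and 1664 bp), had 0 and 1, and a relation of width to enhancer number was not tested.

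Of the 26 enhancers, 8 overlapped the gene itself, 7 lay upstream and 11 downstream. The 6 at Eed were all upstream, from 17.5 to 49.9 kb before the first-ranked TSS, and Eed was the closest coding gene to each of them. At Bmi1, 6 of the 7 lay downstream of the gene, 13.1 to 43.8 kb after the first-ranked TSS, and the nearest coding TSS belonged to Spag6 for all 6. Both enhancers of Cbx2 were nearer to a TSS of Cbx8, the neighbouring gene of the same family. The enhancers were assigned by distance alone, and 14 of the 26 had the Polycomb gene as the closest coding gene. The widest was a region of 2573 bp inside Cbx7 (chr15:79950099-79952671), between its unmarked and its marked promoter, 18.7 kb upstream of the first-ranked TSS. It was wider than 99.9% of all putative enhancers, whose median was 405 bp. A region of 1364 bp just beyond the 3' end of Ezh1 (chr11:101189241-101190604) was wider than 96.4%. Cbx7, with the narrowest H3K4me3 peak, thus held the widest of the enhancers.

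**Figure D4:**
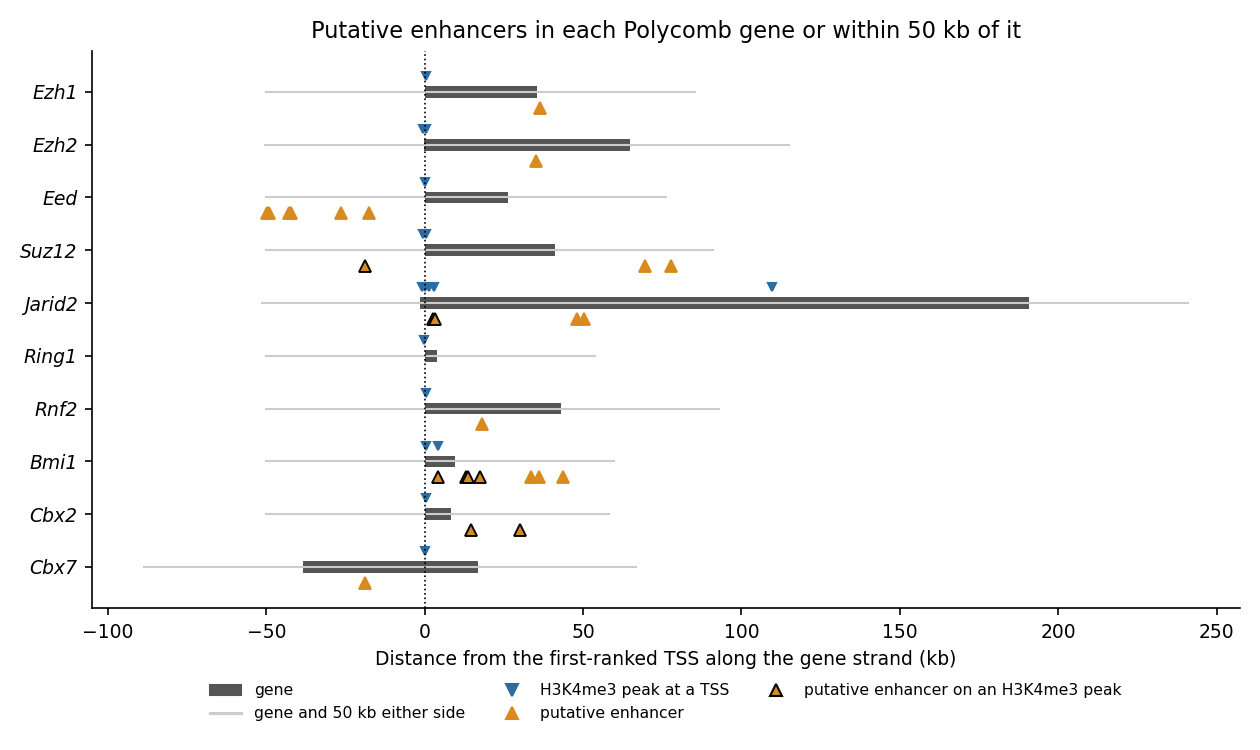
Putative enhancers (orange triangles at their centres, black outline where they overlap an H3K4me3 peak), H3K4me3 peaks at TSSs (blue triangles at their centres), the gene (dark bar) and the 50 kb on either side (grey line), by distance in kb from the first-ranked TSS along the gene strand. Bmi1 with 7 and Eed with 6 had the most and Ring1 with 0 the fewest, and all 6 at Eed lay upstream.

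Some regions were in both lists. Of the 26 enhancers, 9 overlapped an H3K4me3 peak (4 near Bmi1, 2 near Jarid2, 2 near Cbx2 and 1 near Suz12), against 7.52% of all putative enhancers. Those of the 9 whose nearest coding TSS belonged to Spag6, Cbx8 or Utp6 overlapped peaks other than the 17 of the Polycomb genes. Of the 17 peaks, 2 overlapped an enhancer, against 4.46% of all peaks at protein-coding TSSs. They were the second peak of Bmi1, of whose 787 bp 704 were shared with 1 enhancer, and the fourth peak of Jarid2, of whose 1212 bp 1042 were shared with 2. These enhancers were centred 13 bp from a TSS of Bmi1 and 92 and 681 bp from a TSS of Jarid2 in GENCODE. The authors left out regions within 1 kb of a TSS, by a TSS set that was not used here. At both genes the overlap was at an internal promoter and not at the first-ranked TSS.

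The other genes of the Polycomb pathway were also marked. Of 34 partner subunits and opposing enzymes, 33 had a peak, against 59.1% of all protein-coding genes. The exception was Auts2, a subunit of a variant PRC1. The median of the widest peaks was 1742 bp in these genes and 1255 bp over all protein-coding genes with a peak. The widest were at Bcor (4424 bp), Phc2 (3722 bp), Pcgf2 (3489 bp) and Bcorl1 (2824 bp), all of PRC1, and wider than the 2391 bp of Bmi1. The narrowest were at Kdm6b (403 bp), Mtf2 (908 bp), Cbx8 (937 bp) and Bap1 (977 bp). Kdm6b, an H3K27 demethylase, had 1 peak within 1 kb of a TSS and rose to 6477 bp once peaks were merged. Among 10 trithorax counterparts, which encode subunits of the complexes that methylate H3K4, 10 had a peak, against the same 59.1%. They included Ash2l, whose endogenous copy was inactivated in these cells. The median was 2408.5 bp, with the narrowest at Dpy30 (1236 bp) and the widest at Kmt2d (4326 bp). The 10 Polycomb genes reached 2391 bp at most, and their median of 1478.5 bp was below that of the trithorax counterparts, with overlapping ranges and no test. With merged peaks the medians were 1870 bp for the Polycomb genes, 2038 bp for the other genes of the pathway and 3095 bp for the trithorax counterparts. Merged widths can include listed peaks that lie more than 1 kb from the TSSs of the gene. This was so at Kdm6b and at Setd1b, whose 1 peak of 4026 bp became 9859 bp.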

How the data were processed

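H3K4me3 ChIP-seq of 12 libraries and 2 inputs was described by the labels. Per the methods, the authors trimmed reads with Trim Galore, aligned them to mm10 with BWA, merged replicates with Picard, called narrow peaks with MACS and formed a union over samples. Enhancers combined H3K4me1, H3K27ac and ATAC-seq of control cells. The deposited lists hold positions alone, with 0 columns of values per sample, so depth is unknown and the time course was not analysed here. Peak starts were read as counting from 0 and enhancer starts from 1. TSSs came from GENCODE release M21, first-ranked transcripts from its APPRIS tags, then coding length. The authors' TSS set can differ. CpG islands were segments scored 17 per CpG and -1 per other base, over 200 bp, with GC over 50% and a CpG ratio over 0.6. RefSeq sequences and promoter windows were of GRCm38.p6. Alternatives varied the TSS set, the windows, the merging of regions, the island definition and the distances. The interval functions were tested on simulated data. Genes and lists were chosen with earlier results of these data known. All 10 genes, the extremes of the other lists and every gene starting within 1 kb of a peak were named. Software comprised Matplotlib 3.10.9, Numba 0.67.0, NumPy 2.4.6, pandas 2.3.3, pysam 0.24.0 and Python 3.11.15.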

Additional observations from a re-analysis of the deposited data

How the results depend on the processing

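Across 60 alternatives to 9 results, 55 counts or medians stayed within 1.5 times the reported value. With 1 TSS per gene, 11 peaks in place of 17 were found at the 10 genes, and Cbx7 had none because its gene model begins at the unmarked upstream promoter. Joining TSSs within 100 bp gave 29 marked promoters of 53 in place of 19 of 41. The count of enhancers moved with the distance, to 8 in the gene only, 15 within 20 kb and 53 within 100 kb, in place of 26. The order of widths among the genes depended on the merging of peaks, as given above. Apart from the single TSS, no TSS set, no window from 0 bp to 3 kb and no minimum width or merging of peaks left any of the 10 genes without a peak, and stricter islands overlapped 9 of the 10 widest peaks. No paired analysis was possible because neither list separates replicates and no result comes from a test. Neither list gives a depth or a score, so a weak and a strong peak cannot be told apart, and a gene without a peak may have been below detection.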

Other observations

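Cbx7 held 1 further H3K4me3 peak that lay outside the windows around its starts. It was 630 bp wide (chr15:79927535-79928164), lay within the gene, and began 4475 bp after the first-ranked TSS and 4352 bp from the nearest annotated TSS of Cbx7. It overlapped a CpG island, with a GC content of 57.6% and a CpG ratio of 0.613, and no putative enhancer. None of the other 9 genes had a peak in the gene that was more than 1 kb from all of its TSSs.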
